A study of Homo sapiens with 4 samples.

Results

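Tetrahydrobiopterin is a cofactor that cells make from GTP and keep in its reduced form by recycling. The 5 genes described here encode that route: GCH1, GCHFR, PTS, SPR and QDPR. They were taken from a table of 61267 genes by name, and all 5 were found and passed the filter on low counts. The set was picked because GCH1 was higher and GCHFR lower after Spautin-1 in these same libraries, so the values of this comparison are given for the 5 genes as a description, with no test.

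GCH1, GTP cyclohydrolase, carries out the first and rate-limiting step, which turns GTP into dihydroneopterin triphosphate. PTS, 6-pyruvoyl-tetrahydropterin synthase, and SPR, sepiapterin reductase, complete the synthesis. GCHFR is the feedback regulator that binds GCH1: it mediates inhibition by tetrahydrobiopterin and stimulation by phenylalanine. QDPR, quinoid dihydropteridine reductase, returns the spent cofactor to its reduced form. Tetrahydrobiopterin serves the aromatic amino acid hydroxylases and the nitric oxide synthases, and it is also a radical-trapping antioxidant that can protect cells from ferroptosis, an iron-dependent death by lipid peroxidation. The series title names ferroptosis and the deubiquitinase USP13.

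RNA was sequenced from SU-DHL-2, 1 established cell line of human diffuse large B-cell lymphoma. The first group, of 2 libraries, received Spautin-1, a small-molecule inhibitor of the deubiquitinases USP10 and USP13, at 10 µM for 36 h. The second, also of 2 libraries, received the solvent alone, and its time in culture is not stated in the sample labels. Both groups are labelled wild type and lymph node, and no genetic change is named for either. The labels do not say whether replicates were separate cultures, so every p-value reflects only the spread between these 4 libraries, which may be technical.

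Library totals ran from 34115420 to 38362526 counts. All 6 B-lineage markers examined were above 1 CPM (counts scaled to a common library total) in every library, and MS4A1, CD79A and PAX5 were among them. Summed T-cell, myeloid, stromal and endothelial markers were at most 1.3 CPM in any library. The epithelial markers summed to 52.4 and 57.2 CPM in Spautin-1 libraries and to 47.6 and 54.2 CPM in vehicle libraries, nearly all of it EPCAM. The B-lineage markers summed to 1120 and 1090 CPM in Spautin-1 libraries, against 821 and 730 CPM in vehicle libraries. MS4A1, CD22 and CD74 carried this gap, CD79B was lower with Spautin-1 (12.8 and 12.7 CPM, against 16.9 and 17.1 CPM with vehicle), and PAX5 and CD79A overlapped. IRF4, PRDM1, BCL6 and MME, which tell activated from germinal-centre types, summed to 216 and 233 CPM in Spautin-1 libraries, against 98.9 and 95.9 CPM in vehicle libraries. Most of that gap was PRDM1, at 114 and 127 CPM with Spautin-1 and 18.4 and 19.0 CPM with vehicle. BCL6 went the other way, at 27.5 and 28.0 CPM with Spautin-1 and 46.2 and 48.1 CPM with vehicle. The part of these markers in the values below was not tested. In bulk RNA, fewer cells that express a gene and less of its RNA per cell cannot be told apart. Across the 9942 genes that averaged at least 5 CPM, 1.14% differed by more than 1.5-fold between the Spautin-1 replicates and 5.47% between the vehicle replicates.

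GCH1 stood at 9.54 and 9.50 CPM in the Spautin-1 libraries, against 5.73 and 4.79 CPM in the vehicle libraries. Both Spautin-1 libraries were above both vehicle libraries, and they differed from each other by less than the vehicle libraries did. The means were 9.52 ± 0.0328 CPM with Spautin-1 and 5.26 ± 0.666 CPM with vehicle (SD, n = 2 each). The log2 fold change was 0.86 ± 0.20 (SE). These levels rest on 358 and 329 reads in Spautin-1 libraries and 199 and 185 reads in vehicle libraries. GCH1 lies on chromosome 14 from 54842008 to 54902826, minus strand (GRCh38), with 2925 exonic bases, and no other gene of the table shares any of them. The 3 small genes inside its introns, RNU6ATAC9P, MIR4308 and FDPSP3, had at most 2 reads in a library.

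GCHFR, the regulator of GCH1, went the other way. It stood at 3.47 and 2.97 CPM in the Spautin-1 libraries, against 7.69 and 11.2 CPM in the vehicle libraries. The groups did not overlap, and the vehicle libraries differed 1.45-fold from each other. The means were 3.22 ± 0.348 CPM with Spautin-1 and 9.43 ± 2.47 CPM with vehicle (SD, n = 2 each). The log2 fold change was -1.55 ± 0.24 (SE). The lowest library, Spautin-1 replicate 2, held 103 GCHFR reads, with an exact Poisson 95% interval of 2.43 to 3.61 CPM. In vehicle replicate 1, with 267 reads, that interval ran from 6.79 to 8.67 CPM. These intervals cover counting error only.

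**Figure D1:**
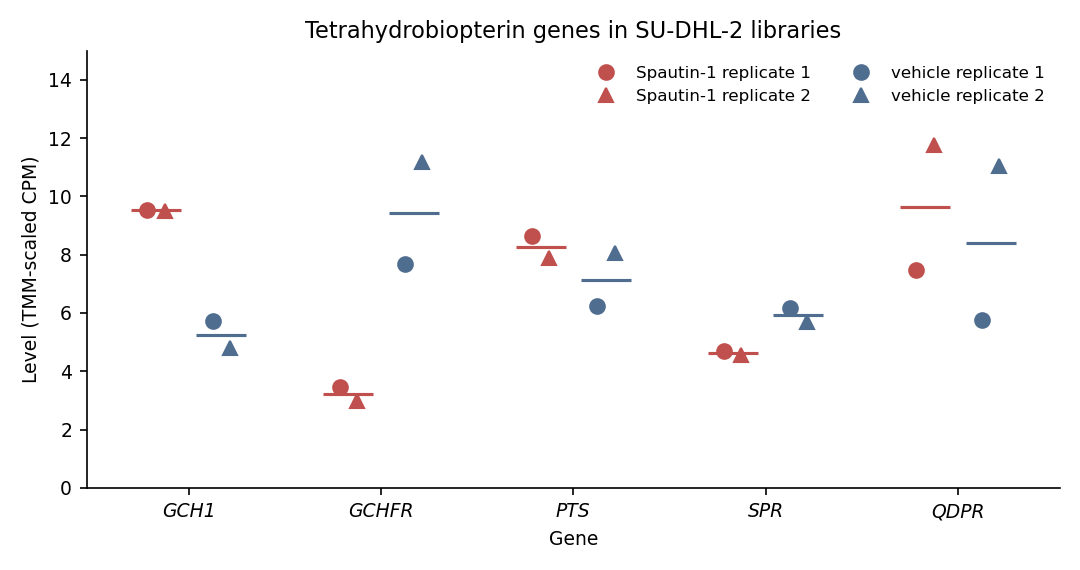
Level of each gene in each library, in TMM-scaled CPM on a linear axis from 0. Circles are replicate 1 and triangles replicate 2, with Spautin-1 in red on the left and vehicle in blue on the right of each pair, and bars mark the means of 2 libraries. GCH1 was at 9.54 and 9.50 CPM in Spautin-1 libraries and at most 5.73 CPM in vehicle libraries, GCHFR at most 3.47 CPM in Spautin-1 libraries and at least 7.69 CPM in vehicle libraries, while PTS and QDPR overlapped between groups.

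GCHFR lies on chromosome 15 from 40764068 to 40767708, plus strand (GRCh38), with 1481 exonic bases. The co-chaperone gene DNAJC17 (40765161 to 40807478) runs over it on the opposite strand and shares 1149 of those bases, or 77.6%. Whether the counts separate strands is not known: the library kit was stranded, but the strand setting of the counting is not given. Of 792 genes whose every exonic base lies under exons of 1 gene on the opposite strand, 318 had at least 20 reads. Of these 318, 0 had more reads than the covering gene. Counting without strands, with each read given to every gene it overlaps, would give 0 whatever the lengths. Counting by strand could also give few, because a covering gene has at least as many exonic bases and raw counts were not corrected for length. The check therefore does not settle the question. If strands were not separated, reads of DNAJC17 on the shared bases could be counted for GCHFR as well. DNAJC17 held 2902 and 2838 reads in Spautin-1 libraries and 2715 and 3364 reads in vehicle libraries. Spread evenly over its 5628 exonic bases, these would put 592 and 579 reads on the shared bases in Spautin-1 libraries and 554 and 687 in vehicle libraries. GCHFR had fewer reads than that in every library, with 130 and 103 in Spautin-1 libraries and 267 and 432 in vehicle libraries. DNAJC17 itself did not pass the test, at -0.05 ± 0.11 on the log2 scale (SE, edgeR adjusted p = 0.786). What share of the GCHFR reads comes from DNAJC17 was not tested.

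The 250 bases before the annotated GCHFR start are shown because this gene changed most among the 5. The sequence is RefSeq's for GRCh38.p14, plus strand, chr15:40763818-40764067, with 5′ on the left. Capitals mark letters matching any of 5 motifs on either strand: CCAAT (NF-Y), TGACG (the short CREB site), TGACGTCA (the full CREB site, which contains the short one), CACGTG (the E-box of USF factors) and GGGCGG (the Sp1 box).
GCHFR: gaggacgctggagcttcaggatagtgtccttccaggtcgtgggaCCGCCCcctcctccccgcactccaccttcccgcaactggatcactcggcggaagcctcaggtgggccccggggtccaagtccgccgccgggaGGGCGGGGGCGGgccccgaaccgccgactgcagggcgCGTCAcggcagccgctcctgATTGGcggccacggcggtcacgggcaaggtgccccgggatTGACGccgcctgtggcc

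Matches in this window were 3 of the Sp1 box, starting 206, 114 and 108 bases before the start, 2 of the short CREB site, at 77 and 17 bases, and 1 of CCAAT, at 57 bases. The full CREB site and the E-box were not found in it. Among 35116 RefSeq promoter windows of this length, 42.6% hold the Sp1 box, 21.2% the short CREB site and 32.0% CCAAT. Windows were found for 4 of the 5 genes, all but GCH1. The PTS window held 1 CCAAT match and none of the others, and those of SPR and QDPR held only the Sp1 box, 4 times and 1 time. A match describes letters only and is not evidence of binding.

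The remaining enzymes of synthesis gave smaller differences. PTS (chromosome 11, 112226367 to 112269955, plus strand) stood at 8.64 and 7.88 CPM in the Spautin-1 libraries, against 6.25 and 8.05 CPM in the vehicle libraries. One vehicle library lay between the Spautin-1 libraries, so the groups overlapped, with a log2 fold change of 0.21 ± 0.20 (SE). PTS shares 5.66% of its exonic bases with RPS6P16, and this and the other genes in its span, PLET1, ST13P10 and ENSG00000268472, had at most 6 reads in a library. SPR (chromosome 2, 72887382 to 72892158, plus strand) stood at 4.69 and 4.56 CPM in the Spautin-1 libraries, against 6.16 and 5.69 CPM in the vehicle libraries. All Spautin-1 values of SPR were lower than all vehicle values, with a log2 fold change of -0.36 ± 0.21 (SE).

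QDPR, the recycling enzyme (chromosome 4, 17460261 to 17512206, minus strand), varied more between replicates than between groups. It stood at 7.46 and 11.8 CPM in the Spautin-1 libraries, against 5.76 and 11.1 CPM in the vehicle libraries, in the order replicate 1, replicate 2. The library numbered 2 was the higher one in both groups, by 1.58-fold with Spautin-1 and by 1.92-fold with vehicle. These gaps exceeded those of 99.4% of the 9942 genes above 5 CPM between the Spautin-1 replicates and of 99.3% between the vehicle replicates. The labels do not tie libraries of the same number to a shared culture or day. The log2 fold change of QDPR was 0.19 ± 0.29 (SE).

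Of the 5 genes, 1 was called higher and 1 lower in the fit over all 18368 genes tested, in which 22.0% of genes were called (edgeR's quasi-likelihood F test with a Benjamini-Hochberg threshold of 0.05). The groups did not overlap in 3 of the 5 genes, and in 61.4% of all genes tested. Since the set was picked for this comparison, nothing is read from these counts. Over the 9942 genes above 5 CPM, 95.3% had a smaller log2 fold change than GCH1 and 0.111% a smaller one than GCHFR. A permutation of 2 against 2 libraries cannot give an exact two-sided p below 0.333. Without Spautin-1 replicate 1 the fit called 1244 genes higher and 1232 lower, and without Spautin-1 replicate 2 it called 1067 and 780, against 2112 and 1933 with all libraries.

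Levels of different genes were set side by side per length, in TPM, the length-corrected counterpart of CPM, computed from the counts and the exonic length of each gene. In Spautin-1 libraries GCH1 had 8.67 ± 0.121 TPM, SPR 8.45 ± 0.0219, PTS 7.03 ± 0.333, QDPR 6.20 ± 2.07 and GCHFR 5.79 ± 0.525 TPM (SD, n = 2). QDPR overlapped both PTS and GCHFR in this order, so those neighbours are not separated. In vehicle libraries GCHFR came first with 18.5 ± 4.27 TPM, followed by SPR with 11.9 ± 1.03, PTS with 6.64 ± 0.975, QDPR with 5.86 ± 2.44 and GCH1 with 5.25 ± 0.828 TPM (SD, n = 2). There QDPR overlapped PTS and GCH1. By group means, GCH1 was first with Spautin-1 and last with vehicle, and GCHFR the other way round. In replicate 1 of each group, however, QDPR was lower than either. With Spautin-1 the level of GCH1 was only 1.01 and 1.04 times that of SPR, within counting error, so first place is not resolved. The lengths include every annotated exon, and the GCHFR level may include reads of DNAJC17, so the order depends on both.

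GCH1 had 1.39 and 1.62 times the TPM level of GCHFR in the Spautin-1 libraries, against 0.377 and 0.217 times in the vehicle libraries. By these levels the enzyme was above its regulator in both Spautin-1 libraries and below it in both vehicle libraries. The GCHFR level may include reads of DNAJC17, so the order in vehicle libraries may not hold for the transcripts themselves. On the log2 scale the ratio of GCH1 to GCHFR averaged 0.59 with Spautin-1 and -1.81 with vehicle, a difference of 2.39. The set was picked because GCH1 rose and GCHFR fell, so this shift restates that choice and adds no support to it. The ratio of GCH1 to SPR was 1.01 and 1.04 in Spautin-1 libraries and 0.464 and 0.419 in vehicle libraries. That gap follows from GCH1 being higher and SPR lower in both Spautin-1 libraries than in both vehicle libraries. The ratio of GCH1 to QDPR was 1.81 and 1.14 in Spautin-1 libraries and 1.41 and 0.614 in vehicle libraries, and overlapped. The 5 genes summed to 35.2 and 37.1 TPM in Spautin-1 libraries and to 43.9 and 52.2 TPM in vehicle libraries. Without GCHFR the sums were 29.1 and 31.6 TPM in Spautin-1 libraries and 28.5 and 30.7 TPM in vehicle libraries, which overlapped.

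**Figure D2:**
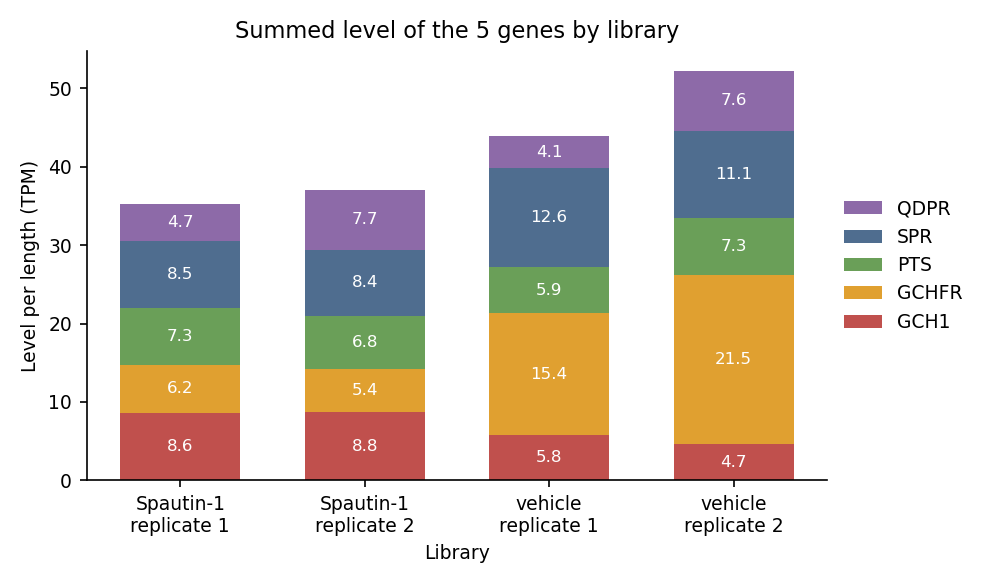
Stacked level of the 5 genes in each of the 4 libraries, in TPM from 0, with each gene's value printed in its segment. GCHFR made up 17.5% and 14.6% of the sum in Spautin-1 libraries and 35.2% and 41.2% in vehicle libraries, and GCH1 24.4% and 23.6% in Spautin-1 libraries and 13.3% and 8.93% in vehicle libraries.

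With each library left out in turn, GCH1, GCHFR and SPR kept their direction. That was settled beforehand, because their groups did not overlap, so these fits describe only the size of the change. The log2 fold change of GCH1 ran from 0.73 without vehicle replicate 2 to 0.99 without vehicle replicate 1, and that of GCHFR from -1.80 without vehicle replicate 1 to -1.25 without vehicle replicate 2. SPR ran from -0.41 to -0.30. PTS ran from 0.035 without vehicle replicate 1 to 0.40 without vehicle replicate 2. QDPR changed sign: it was at -0.20 without vehicle replicate 1 and -0.17 without Spautin-1 replicate 2, and at 0.74 without vehicle replicate 2 and 0.47 without Spautin-1 replicate 1. No direction can be given for QDPR, nor for PTS, whose groups overlapped and whose change came close to 0.

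**Figure D3:**
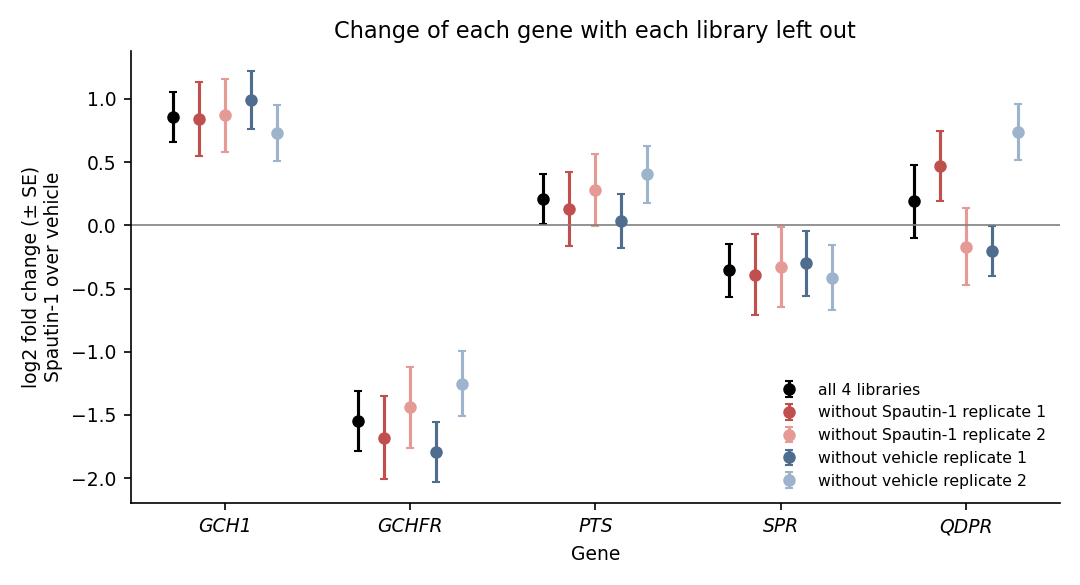
Log2 fold change of Spautin-1 over vehicle for each gene, with bars of 1 SE, from all 4 libraries (black) and with each library left out (colours). GCH1 stayed between 0.73 and 0.99 and GCHFR between -1.80 and -1.25, while QDPR lay on both sides of 0.

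The 3 genes whose log2 CPM, centred on their own mean, came nearest to those of GCH1 over the 4 libraries were RAB8B, RABGAP1 and FDFT1, out of 9941 genes above 5 CPM. Their Euclidean distances on the log2 scale were 0.0202, 0.0273 and 0.0279. RAB8B is a small GTPase of vesicle traffic, RABGAP1 a GTPase-activating protein for Rab proteins and FDFT1 squalene synthase, the enzyme that commits farnesyl groups to sterols. FDFT1 stood at 179 and 182 CPM in Spautin-1 libraries, against 108 and 90.0 CPM in vehicle libraries. Nearest to GCHFR were ENSG00000279827, P2RY11, a purinergic receptor, and MSRB1, a selenoprotein that reduces oxidised methionine, at distances of 0.142, 0.144 and 0.15. MSRB1 stood at 6.77 and 5.25 CPM in Spautin-1 libraries, against 13.1 and 19.4 CPM in vehicle libraries. With 4 libraries in 2 groups, such likeness reflects mainly the size of the change and the gap between the vehicle libraries.

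Around the 5 genes, 53 others were grouped by role into 8 lists, and 46 of them were tested. Of these, 4 were higher and 6 lower (edgeR adjusted p under 0.05), where 11.5% of all genes tested were called higher and 10.5% lower. Their median log2 fold change was -0.06, and that of all genes tested -0.01. The counts shifted with single libraries: without vehicle replicate 1 they were 7 higher and 10 lower, without vehicle replicate 2 they were 9 and 11, without Spautin-1 replicate 1 they were 2 and 5, and without Spautin-1 replicate 2 they were 1 and 5. Scaling by library size alone gave 2 higher and 6 lower, and a replicate block gave 6 higher and 10 lower. A fit with 1 library left out takes all its spread from the other group. Calls made without a vehicle library, here and below, therefore leave out the gap between vehicle libraries.

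Of 2 genes of the carbinolamine step of pterin recycling, 0 were called by edgeR, DESeq2 or limma-voom and 0 were at an unadjusted p under 0.05 by edgeR, with a list median of 0.06. PCBD1, the carbinolamine dehydratase that precedes QDPR in the cycle, was at 2.51 and 1.79 CPM in Spautin-1 libraries and 1.58 and 1.63 CPM in vehicle libraries, and did not pass (edgeR adjusted p = 0.417). PCBD2, its paralogue, was at 4.42 and 3.69 CPM in Spautin-1 libraries and 4.43 and 5.62 CPM in vehicle libraries (edgeR adjusted p = 0.394).

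Reductases that can stand in for parts of the SPR step gave 1 lower gene of 2 tested. AKR1B1, aldose reductase, fell to 18.8 and 19.1 CPM in Spautin-1 libraries, against 28.2 and 29.8 CPM in vehicle libraries, a change of -0.62 ± 0.14 on the log2 scale (SE, edgeR adjusted p = 0.00732). The call was lost when Spautin-1 replicate 1 (adjusted p = 0.0779) or replicate 2 (0.0924) was dropped. CBR1, carbonyl reductase, was at 4.85 and 6.58 CPM in Spautin-1 libraries and 6.77 and 11.8 CPM in vehicle libraries, and missed the threshold (edgeR adjusted p = 0.075). With all 4 libraries it was called lower by edgeR with no filter (log2 fold change -0.71, adjusted p = 0.011) and with a replicate block (-0.67, adjusted p = 0.00942). Without Spautin-1 replicate 2 it was called at -0.94 (adjusted p = 0.0459), without Spautin-1 replicate 1 it was at -0.52 (adjusted p = 0.271) and without vehicle replicate 2 at -0.24 (adjusted p = 0.507). AKR1C3 had 0 reads in all libraries.

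Most enzymes that use tetrahydrobiopterin were not measurable in these cells. Of 7, only NOS3 and TPH1 passed the filter on low counts, and 0 were called (edgeR), with 0 at an unadjusted p under 0.05 and 0 by DESeq2 or limma-voom. NOS3, the endothelial nitric oxide synthase, was at 3.25 and 3.29 CPM in Spautin-1 libraries and 2.25 and 3.83 CPM in vehicle libraries. TPH1, tryptophan hydroxylase, was at 1.52 and 0.462 CPM in Spautin-1 libraries and 2.53 and 1.45 CPM in vehicle libraries, with 16 to 88 reads a library. It was called lower at -2.11 on the log2 scale when Spautin-1 replicate 1 was dropped (adjusted p = 0.00594) and at -1.34 when vehicle replicate 2 was (adjusted p = 0.0167). A replicate block gave -1.13 (adjusted p = 0.0341). TH, TPH2, NOS1, NOS2 and AGMO had at most 5 reads in any library.

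Of 7 genes that supply GTP, the substrate of GCH1, 1 fell and 6 did not pass, with a list median of -0.08. IMPDH1, an isoform of the rate-limiting enzyme of guanine nucleotide synthesis, fell to 61.9 and 61.0 CPM in Spautin-1 libraries, against 86.6 and 111 CPM in vehicle libraries, which is -0.69 ± 0.13 on the log2 scale (SE, edgeR adjusted p = 0.00329). IMPDH2, the other isoform, was at 39.5 and 43.9 CPM in Spautin-1 libraries and 33.6 and 35.3 CPM in vehicle libraries (edgeR adjusted p = 0.142). IMPDH2 was called higher without vehicle replicate 2 (log2 fold change 0.31, adjusted p = 0.0383). GUK1, guanylate kinase, stood at 47.2 and 55.2 CPM in Spautin-1 libraries, between 33.5 and 63.8 CPM in vehicle libraries. Its direction turned with the vehicle library left out: its log2 fold change was 0.61 without vehicle replicate 2 (adjusted p = 3.34e-06) and -0.32 without vehicle replicate 1 (adjusted p = 0.0126).

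**Figure D4:**
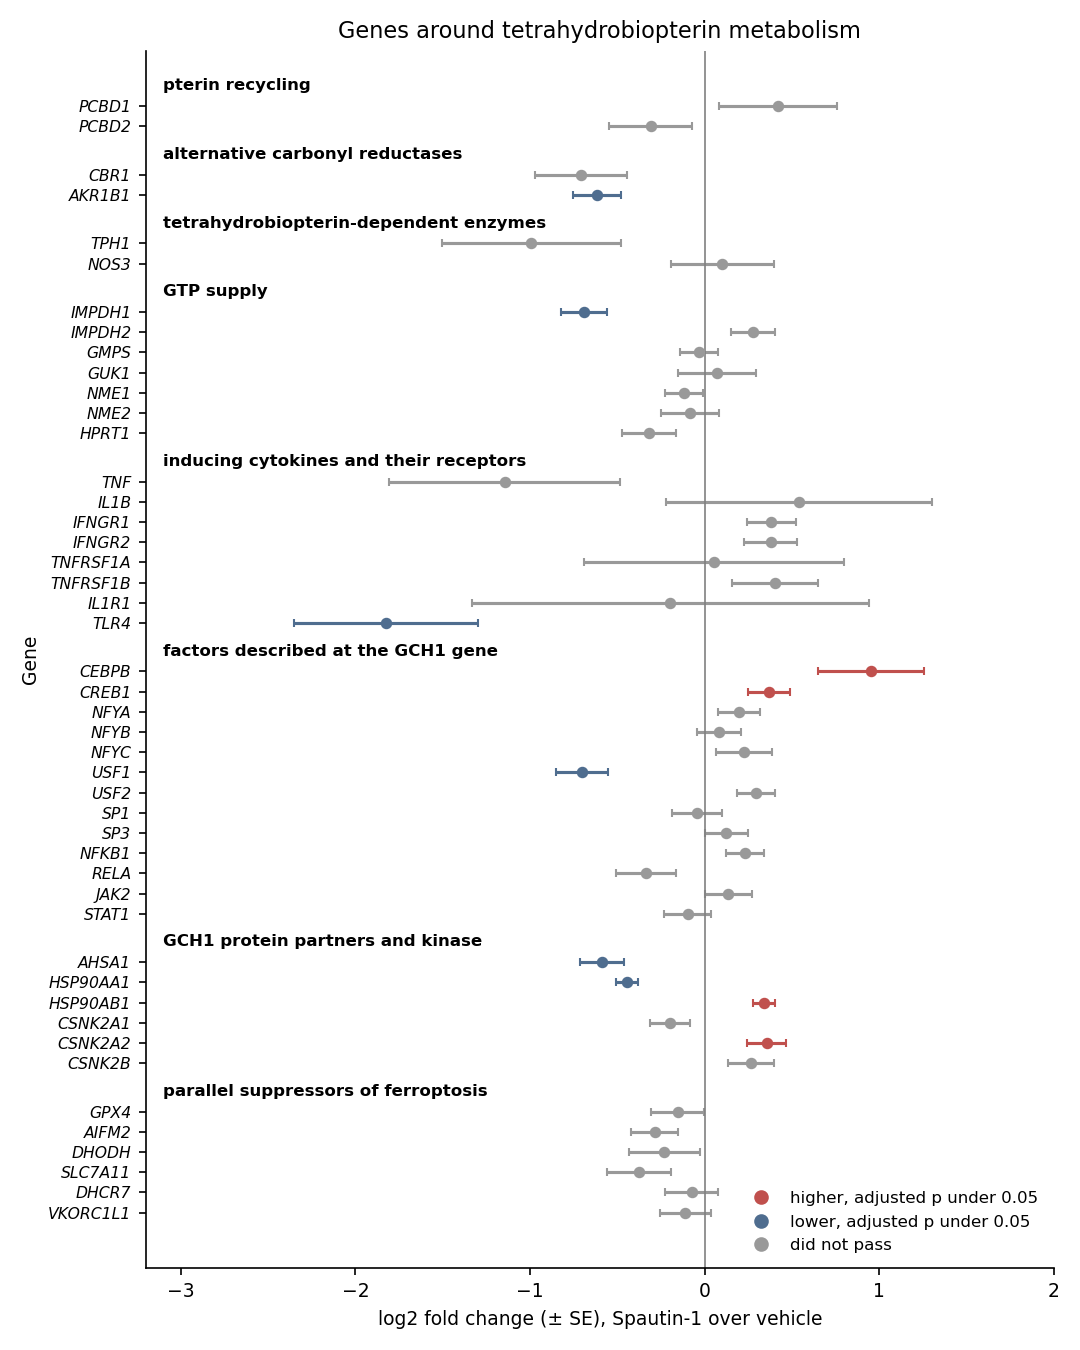
Log2 fold change of Spautin-1 over vehicle, with bars of 1 SE, for the 46 tested genes of the 8 lists. Red genes were higher and blue genes lower at an edgeR adjusted p under 0.05, and grey genes did not pass: 4 are red, 6 blue and 36 grey.

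GCH1 is known to be induced by interferon gamma, tumour necrosis factor and interleukin 1 in many cell types. The list of inducers held these cytokines, their receptors and TLR4, the lipopolysaccharide receptor. Of its 9 genes 8 were tested, 0 were called higher and 1, TLR4, lower, with a list median of 0.22. TLR4 held only 10 and 18 reads in Spautin-1 libraries and 52 and 50 reads in vehicle libraries. It shares 5.11% of its exonic bases with a same-strand gene, ENSG00000285082, which held at most 11 reads in a library. TLR4 fell to 0.267 and 0.52 CPM in Spautin-1 libraries, against 1.5 and 1.29 CPM in vehicle libraries (log2 fold change -1.83 ± 0.53, SE, edgeR adjusted p = 0.0271). It was not called without vehicle replicate 1 (adjusted p = 0.0648) or Spautin-1 replicate 1 (0.137). The interferon gamma receptor chains IFNGR1 and IFNGR2 had log2 fold changes of 0.38 ± 0.14 and 0.38 ± 0.15 (SE) and missed the threshold, with edgeR adjusted p of 0.0705 and 0.0979. Both were called without vehicle replicate 1, at 0.51 and 0.46, and IFNGR1 with a replicate block, at 0.39 (adjusted p = 0.04). IFNG itself had at most 2 reads in any library.

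Of 13 transcription factors and kinases described at the GCH1 gene, partly in rat cells, 2 rose, 1 fell and 10 did not pass, with a list median of 0.14. CEBPB, a stress- and cytokine-responsive factor, shares 12.6% of its exonic bases with the opposite-strand gene CEBPB-AS1, which held at most 100 reads in a library. CEBPB was at 4.96 and 7.39 CPM in Spautin-1 libraries, against 2.25 and 4.09 CPM in vehicle libraries (log2 fold change 0.95 ± 0.30, SE, edgeR adjusted p = 0.041). It was not called without vehicle replicate 1 (0.59, adjusted p = 0.0742) or Spautin-1 replicate 2 (0.65, adjusted p = 0.257). CREB1, the cAMP-responsive factor, was at 50.2 and 50.4 CPM in Spautin-1 libraries, against 38.1 and 39.8 CPM in vehicle libraries (0.37 ± 0.12, SE; edgeR adjusted p = 0.0445). It missed the threshold with library size scaling (adjusted p = 0.0708), with no filter (0.0564), and without Spautin-1 replicate 1 (0.314) or replicate 2 (0.298). USF1, an E-box factor, fell to 12.4 and 12.1 CPM in Spautin-1 libraries, against 20.2 and 19.7 CPM in vehicle libraries. Its log2 fold change was -0.70 ± 0.15 (SE, edgeR adjusted p = 0.00597), and it was not called without Spautin-1 replicate 2 (-0.68). USF2, the other USF factor listed, was at 179 and 181 CPM in Spautin-1 libraries and 137 and 157 CPM in vehicle libraries. It missed the threshold (0.29 ± 0.11, SE, edgeR adjusted p = 0.0698). A replicate block called it higher (0.30, adjusted p = 0.029). RELA did not pass (edgeR adjusted p = 0.188). It was called lower with no filter (-0.34, adjusted p = 0.036) or a replicate block (-0.30, adjusted p = 0.0457).

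Of 6 genes whose proteins are reported to bind or phosphorylate GCH1, the transcripts of 2 rose, 2 fell and 2 did not pass, with a list median of 0.04. AHSA1, an activator of HSP90 described as a partner of GCH1, fell to 237 and 232 CPM in Spautin-1 libraries, against 304 and 402 CPM in vehicle libraries (log2 fold change -0.59 ± 0.12, SE; edgeR adjusted p = 0.00572). HSP90AA1, the inducible HSP90, fell by 0.45 ± 0.06 on the log2 scale (SE; edgeR adjusted p = 0.0005), and HSP90AB1, the constitutive form, rose by 0.34 ± 0.06 (edgeR adjusted p = 0.00251). The pair are close paralogues with pseudogenes, so some reads may be shared. These 3 genes and IMPDH1 were called in the same direction under all 11 alternatives run. CSNK2A2, a catalytic subunit of casein kinase 2, rose by 0.35 ± 0.11 (SE; edgeR adjusted p = 0.0409), but 35.7% of its exonic bases lie under an opposite-strand gene, ENSG00000260927, and it was not called with library size scaling (adjusted p = 0.0674) or without Spautin-1 replicate 1 (0.356) or replicate 2 (0.226).

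Among 6 genes of other routes that bear on ferroptosis, 0 were called in either direction by edgeR, DESeq2 or limma-voom. By edgeR, 0 were at an unadjusted p under 0.05. The list median was -0.19, over genes that do not all act on ferroptosis in the same direction. AIFM2, which regenerates reduced coenzyme Q at the plasma membrane, was at 23.2 and 22.8 CPM in Spautin-1 libraries and 29.6 and 26.6 CPM in vehicle libraries (edgeR adjusted p = 0.157). DHODH, the mitochondrial enzyme with a like role, was at 7.97 and 6.06 CPM in Spautin-1 libraries and 8.72 and 7.76 CPM in vehicle libraries (edgeR adjusted p = 0.464). DHCR7, which consumes 7-dehydrocholesterol, was at 23.2 and 18.7 CPM in Spautin-1 libraries and 22.1 and 22.0 CPM in vehicle libraries (edgeR adjusted p = 0.776). Without vehicle replicate 2 the log2 fold change was -0.36 for AIFM2 and -0.66 for SLC7A11, and without vehicle replicate 1 it was -0.40 for GPX4. These fits hold 1 vehicle library and leave out the gap between vehicle libraries, so no call is read from them. With the other vehicle library left out, AIFM2 was at -0.21, GPX4 at 0.14 and SLC7A11 at -0.03. For SLC7A11 a replicate block gave -0.35 (adjusted p = 0.0482).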

How the data were processed

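Raw counts of reads per gene were deposited by the authors for 4 libraries of SU-DHL-2 cells, 2 with Spautin-1 and 2 with vehicle, per the file headers, which also give another value, each gene's exonic length. Per the labels' protocols, a VAHTS kit for stranded mRNA libraries was used. Trimmomatic 0.36, featureCounts from Subread 1.5.1, edgeR 3.12.1 and the build GRCh38 are named in the submitters' processing notes. Which aligner, annotation release and strand setting were used is not given in these sources. Libraries held 34115420 to 38362526 counts.

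The analysis used edgeR 4.0.16 in R 4.3.3. A filter by group (filterByExpr, at least 10 counts and 15 in total) kept 18368 genes. After TMM scaling, groups were compared by the two-sided quasi-likelihood F test, and p-values were adjusted over all genes kept by the Benjamini-Hochberg method, with a threshold of 0.05. The SE of a log2 fold change is its size over the square root of F. CPM values are TMM-scaled, and TPM values use the deposited lengths. Genes at a locus were found from the deposited exons, with a name split into loci more than 500000 bases apart. The steps were tested on simulated data.

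The members and gene lists were chosen with earlier results of these data known. Named are the 5 members, up to 4 called genes per list and direction, genes not tested, genes that overlap a member, and the 3 genes nearest to GCH1 and to GCHFR in log2 CPM (prior count 2). List genes named although they did not pass were chosen after their values were seen. Some genes of the lists and markers are not reported here. The alternatives were other scalings and filters, DESeq2 1.42.0, limma-voom (limma 3.58.1), a replicate block and each library left out.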

Additional observations from a re-analysis of the deposited data

How the results depend on the processing

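Leaving out 1 library moved the count of genes called higher between 1067 and 2981 and of genes called lower between 780 and 2785, with the lowest counts when a Spautin-1 library was missing. Each lone library was then assumed to vary like the other group. The count of list genes called higher ran from 1 to 9 and of those called lower from 5 to 11 with 1 library left out. With library size scaling, 2 list genes were higher, and with the replicate block 10 were lower. RLE scaling, no filter, a filter of 1 CPM in 2 libraries, DESeq2 and limma-voom kept all 4 counts within 1.5 times. The log2 fold changes ran from 0.73 to 0.99 for GCH1, from -1.80 to -1.25 for GCHFR and from 0.035 to 0.40 for PTS over the fits with 1 library left out, and the other alternatives moved no member by more than its replicate spread. The deviations of same-numbered libraries from their group means correlated at 0.12 across 9942 genes, which are not independent replicates. The labels do not pair the libraries. With the replicate block, 2615 genes were called higher and 2485 lower, and the values for GCH1, GCHFR, PTS, SPR and QDPR were 0.86, -1.53, 0.22, -0.36 and 0.23. No list gene called with all 4 libraries changed direction. For the fits with 1 library left out that was settled beforehand, because the groups of these genes did not overlap. GUK1, not called with all 4 libraries, was at 0.61 without vehicle replicate 2 and at -0.32 without vehicle replicate 1. GCHFR levels below 5 CPM rest on 103 to 130 reads, and the cause of the gaps between vehicle libraries was not tested.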
